A study of Mus with 8 samples.

Results

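Hormone induction was examined in P cells, which are 3T3-L1 cells carrying an shRNA against Prep1. The comparison set the 2 libraries of P cells at day 1 against the 2 libraries of P cells at day −2, so its members are 4 of the 8 libraries of the series, over all 24013 genes of the count table. The members were chosen by their condition labels. 3T3-L1 is a mouse line of fibroblast-like preadipocytes that turns into fat cells under a hormone cocktail. The P cells were infected with a pLKO.1 lentivirus carrying the Prep1 shRNA and the C cells with the same vector carrying a scrambled sequence, and both were selected with puromycin. A single shRNA was used, so P cells are a model of reduced Prep1 with 1 targeting sequence. Each condition had 2 biological replicas. Day −2 cells were in growth medium with calf serum before induction. Day 1 cells had been moved, after confluence, to a medium with dexamethasone, isobutylmethylxanthine (IBMX), insulin and fetal bovine serum. The agents, the change of serum and the time after confluence differ between the days together, and their shares in any difference cannot be told apart.

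Fat cell differentiation of this line is a relay of transcription factors. Dexamethasone activates the glucocorticoid receptor, IBMX keeps cyclic AMP high by blocking its breakdown, and insulin at high dose also acts through the receptor for insulin-like growth factor. C/EBPβ and C/EBPδ are known to come first and to switch on PPARγ and C/EBPα, the factors that hold the fat cell state, while confluent preadipocytes re-enter the cell cycle before they fill with lipid. Prep1, encoded by Pknox1, is a homeodomain protein of the TALE class that works as a dimer with PBX proteins and competes for them with MEIS proteins.

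Library totals lay between 20428816 and 27614353 counts (median 23376076). Levels are given as CPM, the counts of a gene per 1000000 counts of its library, with library sizes scaled by TMM. On this scale 3 counts correspond to 0.16 and 0.107 CPM in the day −2 replicas of P cells and to 0.128 and 0.14 CPM at day 1, a floor that covers counting error only. Replica 1 of P cells at day −2 stood apart. It had counts on 16232 genes against 18260 in replica 2, and its scaling factor was 0.837 against 0.968 to 1.08 in the other 7 libraries. Replica 2 at day 1 and replica 1 of C cells at day 1 also had counts on fewer than 17000 genes. The cells carried preadipocyte markers at all times. The 10 markers summed to 78403 and 22164 CPM at day −2 and to 17749 and 17758 CPM at day 1. Collagen messages weigh on this sum, with Col1a1 alone at 23559 and 4882 CPM at day −2. Markers of other cells were in part present. Of the macrophage markers 4 of 7 passed the filter on low counts, of the bone markers 3 of 6 and of the skeletal muscle markers 2 of 6. For endothelium 4 of 6 passed, for cartilage 2 of 4 and for epithelium 2 of 6. The bone markers summed to 34.7 and 36.4 CPM at day −2 and to 17.6 and 14.7 CPM at day 1, and those of endothelium, cartilage and epithelium to at most 2.56 CPM. At an adjusted p under 0.1 and over 2-fold, Cd68 (macrophage) and Alpl (bone) were higher at day 1 and Csf1r (macrophage), Runx2 and Dmp1 (bone) and Des (muscle) lower. The preadipocyte markers were split, with Dlk1, Ly6a and Pdgfra higher and Col1a1, Col1a2, Pdgfrb and Thy1 lower. The markers with at most 3 counts in every P library were Ptprc and Adgre1 (macrophage), Myod1, Myog, Ckm and Mymk (skeletal muscle), Sp7 and Ibsp (bone) and Lep (fat cell).

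The knockdown was checked first. At day −2, Pknox1 stood at 28.1 and 26.5 CPM in the C libraries and 17.3 and 18.3 CPM in the P libraries. At day 1, its C libraries had 38.1 and 36.5 CPM and its P libraries 23.6 and 23.8 CPM. The P libraries lay under the C libraries of the same day without overlap, by −0.62 on the log2 scale at day −2 (adjusted p = 0.0558, from the quasi-likelihood test of edgeR after Benjamini-Hochberg correction) and by −0.65 at day 1 (adjusted p = 0.0575). Both values pass the adjusted p of 0.1 used here but not the 2-fold threshold. Between the days Pknox1 differed by 0.42 ± 0.14 (SE, worked back from the test statistic) in P cells (adjusted p = 0.0791). The day 1 replicas lay above both day −2 replicas. The difference is under 2-fold and was not called.

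The day −2 replicas of P cells lay far apart, and every comparison rests on them. Across the 13339 genes tested, the log2 difference between both replicas had an SD of 1.0 at day −2 and of 0.524 at day 1, against 0.34 and 0.48 in C cells. Among the 5600 genes whose log2 CPM was above 5, the SD was 0.795 at day −2 and 0.121 at day 1. At day −2, 3686 genes (27.6%) differed by more than 2-fold between the replicas, and at day 1 667 genes (5%) did. The mean at day 1 was more than 2-fold above replica 1 for 2937 genes, above replica 2 for 1197 and above both for 818. It was more than 2-fold below replica 1 for 2314 genes, below replica 2 for 1362 and below both for 946. For 95 genes it was above one replica and below the other.

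**Figure D1:**
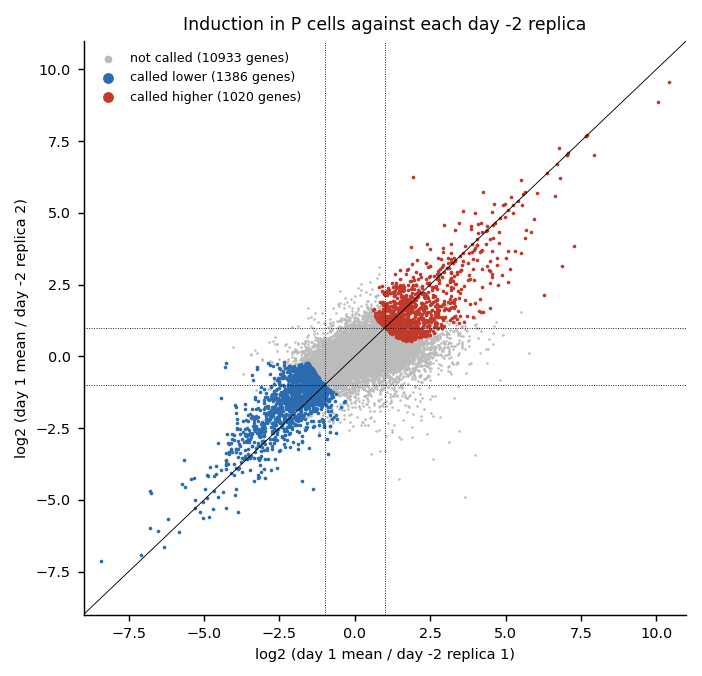
Log2 ratio of the mean of the P libraries at day 1 to replica 2 of day −2 (y axis) against the ratio to replica 1 (x axis), 1 point per gene tested, coloured by call, with dotted lines at 2-fold and a solid diagonal. Called genes have the same sign against both replicas, with medians of 1.82 and 1.47 against replica 1 and 2 for genes called higher and of −1.85 and −1.35 for genes called lower.

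The 3 genes with the highest ratio of replica 1 to replica 2 were listed under microRNAs, which overlap longer transcripts, so that their reads cannot be assigned to the microRNA. Mir675, which lies in H19, had 2.34 and 0.0357 CPM at day −2 and 8.85 and 9.43 CPM at day 1. Mir6236 had 308 and 18.7 CPM at day −2 and 14.2 and 18.1 CPM at day 1, and Mir7672 9.96 and 0.571 against 0.427 and 0.42 CPM. For Mir6236 and Mir7672 replica 1 alone stood above day 1, while replica 2 was near it. For Mir675 replica 1 was the nearer to day 1.

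The 3 genes at the other end were at 0 in replica 1. Vmn2r110, a vomeronasal receptor gene, had 0 and 32 CPM at day −2 and 13.2 and 0 CPM at day 1. AY512915 had 0 and 14.6 CPM at day −2 and 13.6 and 0.0467 CPM at day 1, and 0610039K10Rik 0 and 5.99 against 3.03 and 0 CPM. In each of the 3, the libraries of the days overlapped, with replica 2 of day −2 and replica 1 of day 1 high and the other P libraries at or near 0. In C cells both day −2 libraries had counts of these genes, with 28.5 and 22.3 CPM of Vmn2r110, 10.3 and 20.8 CPM of AY512915 and 3.43 and 2.97 CPM of 0610039K10Rik. Such gaps were few. In replica 1 of day −2, 9 genes were at 0 that had 50 or more counts in replica 2. Of these, 7 had at most 3 counts in replica 2 of day 1, and 6 had at most 3 in replica 1 of C cells at day 1. In replica 2 of day 1, 10 genes were at 0 that had 50 or more counts in replica 1. All 10 had at most 3 counts in replica 1 of C cells at day 1. The gaps were thus shared in part by the 3 libraries with under 17000 genes detected, 1 of which is of C cells. Collagen messages also differed. Col1a1, the main chain of type I collagen, had 23559 and 4882 CPM at day −2.

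Between day −2 and day 1, 2406 of the 13339 genes tested in P cells were called, which is 18%. The call required an adjusted p below 0.1 together with a ratio above 2 or below 0.5. The test took 1 spread per gene from all 8 libraries. The wider gap between the day −2 replicas of P cells was thus averaged with narrower ones. There were 1020 genes higher at day 1 (7.65%) and 1386 lower (10.4%). These shares over all genes are the ones to set beside the counts in the gene groups below. RNA was taken from whole cultures, so that a change in the share of cells of a type and a change in RNA per cell cannot be told apart. None of the 2406 had overlapping libraries, and 8083 of all genes tested (60.6%) did not overlap either. An unadjusted p under 0.05 was reached by 4894 genes. Of the called genes, 1641 (68.2%) lay more than 2-fold from each day −2 replica in the same direction, 751 higher and 890 lower. The median log2 ratio over all genes was 0.02, and 42.4% of the called genes were higher. Scaling by library totals moved that median to 0.195 and the share of higher genes to 54.5%, so that group medians no further from 0 than that are given without a direction. The number called depended on single libraries: it was 5000 without replica 2 of day −2, and 1305 and 1248 without replica 1 and 2 of day 1.

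Of the genes named, those in the top ranks were taken by rule and the other members of gene groups were chosen after their values were seen. The 12 genes with the clearest rise, judged by the smallest ratio between any day 1 and any day −2 library, had several secreted proteins among them. Igf2, the insulin-like growth factor made by fetal tissue and mesenchymal cells, had 3.89 and 2.75 CPM at day −2 and 455 and 416 CPM at day 1. Both day 1 replicas were far above both day −2 replicas, by 7.05 ± 0.23 on the log2 scale (adjusted p = 8.4e-05, 131-fold). Lcn2, the iron-siderophore binding protein lipocalin 2, had 0.32 and 0.678 CPM and then 95.8 and 103 CPM, a rise of 7.56 ± 0.33 (adjusted p = 1.2e-04). The day −2 values of Lcn2 were low but above the floor.

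Other members of this group were at or near 0 before induction. Pip, the prolactin-induced protein, had 0 and 0.0713 CPM at day −2 and 112 and 121 CPM at day 1. From its 2 counts at day −2 against 5214 at day 1 the ratio was 2723, with a 95% interval for counting error of 753 to 22488. Agtr2, the type 2 angiotensin receptor, had 0 and 0.107 CPM and then 93.5 and 86.7 CPM, a ratio of 1409 (482 to 6835). Both genes were thus read in every day 1 library and almost absent from the day −2 libraries. Ear2, an eosinophil-associated ribonuclease, went from no count to 16.9 and 18.3 CPM, at least 106-fold higher. The genes 53876 and 503845 had the same values as each other, 16.5 and 17.7 CPM at day 1 (at least 104-fold higher), and Ear1 had 8.63 and 8.87 CPM (at least 54-fold higher). Genes of the Ear family are near-identical copies, and how reads were shared among these 4 entries is uncertain. The renin genes Ren1 and Ren2 had the same counts in every P library, none at day −2 and 9.96 and 12 CPM at day 1, and count as a single signal that was at least 62.3-fold higher. Fam107a (at least 64.2-fold) and the protease inhibitor gene Wfdc12 (at least 40.9-fold) completed the list.

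**Figure D2:**
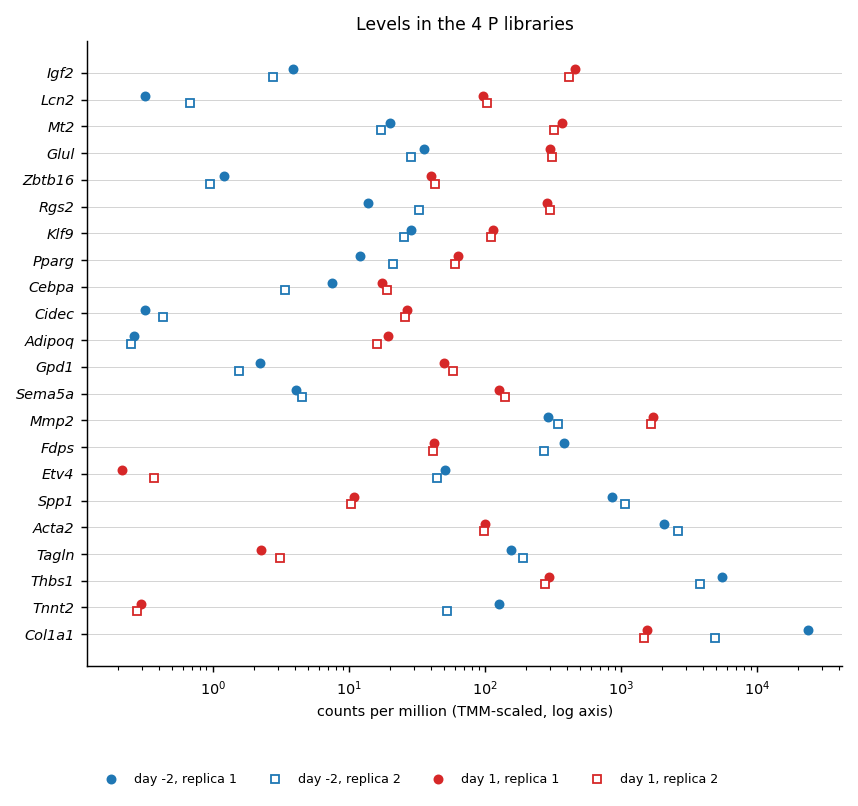
CPM on a log axis (x axis) of called genes (y axis) in the 4 P libraries, with day −2 in blue, day 1 in red, replica 1 as filled circles and replica 2 as open squares. Both red points lie on the same side of both blue points in each gene shown, while Col1a1, at 23559 and 4882 CPM before induction, shows the distance between the day −2 replicas.

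The 12 genes with the clearest fall held Tagln and Actg2 of the contractile genes and Etv4 of the genes under ERK control. Tnnt2, cardiac troponin T, had 127 and 52.7 CPM at day −2 and 0.299 and 0.28 CPM at day 1. It fell by 8.25 ± 0.60 on the log2 scale (adjusted p = 3.8e-04), and the days were separated although the day −2 replicas themselves differed by more than 2-fold. Etv4, an ETS factor driven by FGF and ERK signals, had 50.5 and 44.3 CPM and then 0.214 and 0.373 CPM, a log2 ratio of −7.32 ± 0.28 (adjusted p = 8.4e-05, 162-fold lower). Spp1, the matrix protein osteopontin, had 851 and 1073 CPM and then 10.9 and 10.3 CPM (91.1-fold lower). Tagln, the actin-binding protein SM22α, had 156 and 191 CPM and then 2.26 and 3.13 CPM (64.3-fold lower). In Etv4, Spp1 and Tagln the day −2 replicas were near each other, and both were far above day 1. The others were Klhdc8a (69.3-fold lower), Fgd3, Actg2 (smooth muscle γ-actin, 39.8-fold), Il18rap (a subunit of the interleukin 18 receptor, 53.1-fold), Megf10 (40.2-fold), Slco4a1 (49.8-fold), Siglecg and Lce1f. Siglecg had 14.9 and 8.38 CPM and then 0.128 and 0 CPM, and its call was lost without replica 2 of day 1 (adjusted p = 0.13). Lce1f was at 0 in both day 1 replicas and at least 15-fold lower.

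Genes of the glucocorticoid response rose. Of 20 tested genes (21 listed) known to respond to the glucocorticoid receptor, 13 were higher at day 1 and none lower, with a median log2 ratio of 1.9 against 0.02 over all genes. The median was 1.62 over replica 1 and 2.19 over replica 2. Besides Lcn2, Zbtb16, the zinc finger factor PLZF, had 1.22 and 0.963 CPM at day −2 and 40 and 43.1 CPM at day 1, a rise of 5.26 ± 0.40 (adjusted p = 4.5e-04). Mt2 (metallothionein 2) went from 20.2 and 17.2 CPM to 367 and 319.9 CPM, and Tsc22d3, the glucocorticoid-induced leucine zipper, from 23.2 and 14.4 CPM to 186 and 169.8 CPM. Fkbp5, which feeds back on the receptor, had 142 and 84.2 CPM and then 446 and 441 CPM. None of these genes overlapped between the days, which held for every called gene and for 60.6% of all genes tested. The count was 14, 13, 13 and 12 without each P library in turn.

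Of 22 tested targets of cyclic AMP, 10 were higher and none lower, with a median of 1.37 (0.94 over replica 1 and 1.31 over replica 2). Dusp1 and Per1 are in both this group and the glucocorticoid targets. Groups given below share members too, so that their counts are not separate. Klf9 and Cebpd are glucocorticoid targets and early factors, and Lcn2 is also in the acute phase group. Pik3r1 is in the glucocorticoid and insulin groups, Angptl4 in the glucocorticoid and fat cell groups, and Slc2a4 in the fat cell and insulin groups. Rgs2, a brake on G protein signals, had 13.9 and 32.6 CPM at day −2 and 283 and 298 CPM at day 1, a rise of 3.64 ± 0.40 (adjusted p = 0.00161). The cyclic AMP phosphodiesterases Pde3b (11.5 and 13.4 to 55.3 and 57 CPM) and Pde4d (40.2 and 51.6 to 141 and 134 CPM) rose with it, as did the kinase gene Sik1 and the orphan receptor gene Nr4a3. The immediate early gene Fos was not called. It had 317 and 78.3 CPM at day −2 and 502 and 539 CPM at day 1, so that day 1 was above both replicas by unequal amounts (log2 ratio 1.40 ± 0.58, adjusted p = 0.129).

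In the early transcription factors of fat cell differentiation, 6 of 17 tested genes (18 listed) rose and none fell, with a median of 0.49. Pparg had 12.1 and 21.2 CPM at day −2 and 63.5 and 60.5 CPM at day 1, a rise of 1.89 ± 0.27 (adjusted p = 0.00433, 3.72-fold). Cebpa had 7.51 and 3.39 CPM and then 17.5 and 19.1 CPM, a rise of 1.76 ± 0.35 (adjusted p = 0.0149). Both genes were above both day −2 replicas at day 1, as was every gene called higher. Of the 4 Krüppel-like factor genes tested in this group 3 also rose: Klf9 from 28.5 and 25.2 to 115 and 111 CPM, Klf5 from 10.7 and 8.99 to 35 and 30.9 CPM, and Klf4 from 49.5 and 29.4 to 103 and 94.1 CPM. Without replica 2 of day −2 the log2 ratio of Klf4 was 1.0 and the gene was no longer called. Klf6 was not called (log2 ratio 0.27, adjusted p = 0.345). Rxra, the partner receptor of PPARγ, went from 187 and 113 to 302 and 355 CPM.

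Cebpb and Cebpd, the factors known to come first, were not called, and neither were Egr2 and Srebf1. Cebpb had 259.5 and 169 CPM at day −2 and 306 and 253 CPM at day 1, where replica 1 of day −2 lay just above replica 2 of day 1 (log2 ratio 0.38 ± 0.23, adjusted p = 0.263). Cebpd had 64.5 and 32.9 CPM and then 71.4 and 65.7 CPM, and Egr2 16.8 and 8.88 CPM and then 15.1 and 15.4 CPM. Srebf1, the lipogenic factor SREBP1, had 105 and 60 CPM and then 90.2 and 97.4 CPM. Cebpd lay above both replicas by 0.08 and 1.06 on the log2 scale, and it was called when replica 1 of day −2 was left out (log2 ratio 1.05, adjusted p = 0.00114). For Egr2 and Srebf1 the day 1 values lay between the day −2 replicas, and the sign of the ratio turned without replica 2 of day −2, to −0.13 and −0.16.

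Genes of the mature fat cell were higher at day 1 in P cells. Of 26 tested (31 listed), 17 were higher and none lower, with a median log2 ratio of 1.77, and of 1.42 and 1.74 over replica 1 and 2. Adipoq, the hormone adiponectin, had 0.266 and 0.25 CPM at day −2 and 19.4 and 16.1 CPM at day 1, a rise of 6.08 ± 0.35 (adjusted p = 1.6e-04, 68.7-fold). Cidec, the lipid droplet protein FSP27, had 0.32 and 0.428 CPM and then 26.8 and 26 CPM (6.10 ± 0.27, adjusted p = 1.3e-04). Cfd, the secreted protease adipsin, had 0.16 and 0.0713 CPM and then 10.3 and 11.9 CPM, although its day −2 values were at or under the floor. In these genes the day −2 replicas were both low and near each other. The days did not overlap, as in every called gene and in 60.6% of all genes tested.

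Lipid handling genes moved with them. Gpd1, which makes the glycerol phosphate backbone of fat, had 2.24 and 1.57 CPM at day −2 and 50 and 58.6 CPM at day 1 (28.5-fold). Fabp4, the fatty acid carrier of fat cells, had 28.4 and 19.8 CPM and then 67.4 and 74.3 CPM (2.94-fold), and Plin1, the perilipin of the droplet surface, 4.85 and 1.68 and then 15.5 and 12.7 CPM. Lpl, lipoprotein lipase, went from 183 and 200.1 to 417 and 375 CPM. Slc2a4, the insulin-dependent glucose carrier, was called on few counts, with 2 at day −2 and 31 at day 1 (ratio 16.2, 95% interval 4.12 to 139.6), and the call was lost without either day 1 replica of P cells or either day −2 replica of C cells. Adig and Pck1, the latter encoding a key enzyme of glyceroneogenesis, were at 0 in both day −2 replicas and at least 6.72-fold and 3.74-fold higher. Fabp5, the carrier of skin and preadipocytes, had 162 and 138 CPM and then 79.9 and 78.1 CPM (1.90-fold lower, not called). Leaving out libraries gave 16, 18, 9 and 12 genes higher without replica 1 and 2 of day −2 and replica 1 and 2 of day 1. It was 7 when at least 10 counts were required in every library, which 16 of the 26 genes had. The 7 fat cell markers summed to 34.1 and 22.5 CPM at day −2 and to 140.0 and 142 CPM at day 1.

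**Figure D3:**
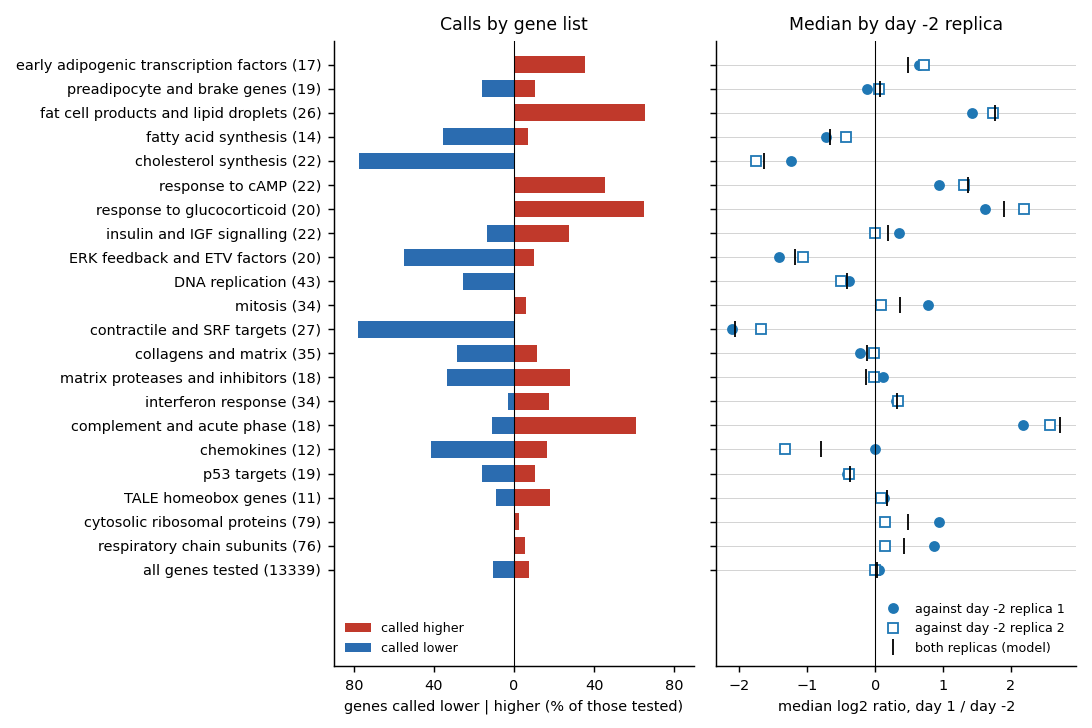
Percent of the tested genes of each group called lower (blue, to the left) or higher (red, to the right) in P cells, and, in the panel beside it, the median log2 ratio of day 1 to day −2 (x axis) against replica 1 (circles), against replica 2 (squares) and in the model (bars), with the number of genes tested in parentheses. Glucocorticoid, complement and fat cell genes lie right of 0 and contractile and cholesterol genes left of 0 against either replica, while ribosomal protein genes lie at 0.94 against replica 1 and 0.14 against replica 2.

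Genes of the preadipocyte state and brakes on differentiation held 2 genes higher and 3 lower of 19, shares near those over all genes (7.65% and 10.4%). Dlk1, the surface protein Pref-1 of preadipocytes, had 857 and 645 CPM at day −2 and 2483 and 2411 CPM at day 1, a rise of 1.70 ± 0.18 (adjusted p = 0.00148). Foxo1, a factor switched off by insulin signals, rose from 9.32 and 8.42 to 30.2 and 33.6 CPM. Ddit3, the stress factor CHOP, fell from 76.4 and 61.4 to 27 and 25.1 CPM, and Smad3, which carries TGFβ signals, fell from 103 and 73 to 39.1 and 43.9 CPM. Gata2 fell from 11.2 and 7.03 to 4.91 and 3.64 CPM and lost its call without replica 1 of day −2 or either day 1 replica. Klf2, Klf3 and Klf7 were not called. Without replica 1 of day −2 the counts of the group became 6 higher and 1 lower, and without replica 1 of day 1 they were 2 and 1.

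Sterol genes fell together. Of 22 tested genes (23 listed) of cholesterol synthesis and uptake, 17 were lower at day 1 and none higher, with a median of −1.64 (−1.24 over replica 1 and −1.75 over replica 2). Fdps, which makes farnesyl diphosphate, had 380 and 270.3 CPM at day −2 and 42.1 and 41.4 CPM at day 1, a log2 ratio of −2.96 ± 0.20 (adjusted p = 2.9e-04). Srebf2, the factor that drives the pathway, fell from 610.5 and 330.2 to 144 and 145 CPM. Both day 1 replicas were below both day −2 replicas in each of these genes, as in every gene called lower. In a few genes the fall was mainly against replica 2, as in Idi1, with 35.7 and 127 CPM at day −2 and 20.4 and 20.3 CPM at day 1. Between 14 and 18 genes were lower when each P library was left out.

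In fatty acid synthesis more genes fell than rose. Of 14 tested (15 listed), 1 was higher and 5 were lower (7.65% and 10.4% over all genes), with a median of −0.66. The desaturase gene Fads2 fell from 172 and 126 to 35.3 and 37.5 CPM and the elongase gene Elovl6 from 48 and 82.5 to 17.3 and 17.6 CPM. Fasn, fatty acid synthase, had 1605 and 849 CPM at day −2 and 580.2 and 624 CPM at day 1 (2.04-fold lower, adjusted p = 0.0465). The fall of Fasn was larger against replica 1 (−1.42) than against replica 2 (−0.50). The others lower were Fads1 and Me1. The gene higher at day 1 was Thrsp, a thyroid hormone responsive regulator of lipogenesis, which was at 0 at day −2 and had 2.09 and 1.96 CPM at day 1, at least 12.3-fold higher.

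Insulin and insulin-like growth factor signalling held genes in both directions. Of 22 tested (25 listed), 6 were higher and 3 lower (7.65% and 10.4% over all genes). Igf2 had the largest ratio. Igfbp4, a binding protein that holds these factors, rose with 39.8 and 13 CPM at day −2 and 318 and 299.8 CPM at day 1. The receptor substrates went opposite ways. Irs1 fell from 81.6 and 63.6 to 28.8 and 28.2 CPM (−1.35 ± 0.17, adjusted p = 0.00247), while Irs2 rose from 65.1 and 55.1 to 143 and 136 CPM (1.21 ± 0.14, adjusted p = 0.00208). Grb14, an inhibitor of the insulin receptor, fell from 68 and 81.2 to 13 and 14.1 CPM. Igfbp7 had 958 and 471 CPM and then 274 and 264 CPM, and its call was lost without replica 1 of day −2 (log2 ratio −0.82) or either day 1 replica.

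Of 20 genes under ERK control, 11 were lower and 2 higher, with a median of −1.18 (−1.41 over replica 1 and −1.06 over replica 2). Etv5, the close relative of Etv4, had 17 and 20.3 CPM at day −2 and 2.39 and 1.96 CPM at day 1 (−3.10 ± 0.22, adjusted p = 3.7e-04). Dusp4, a phosphatase that turns ERK off, fell from 24 and 15.6 to 3.38 and 3.17 CPM, and Hbegf, a ligand of the EGF receptor, from 13.4 and 11.3 to 2.99 and 2.19 CPM. The 2 genes higher were Sphk1 and Dusp6, and 7 were not called. Sphk1, which makes sphingosine phosphate, rose from 2.72 and 1.78 to 12.1 and 12 CPM, and Dusp6, also an ERK phosphatase, from 29.8 and 21 to 50 and 57.1 CPM. Dusp6 lost its call without replica 2 of either day. Of these 2 phosphatases of ERK, one fell and the other rose.

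Contractile and serum response genes fell. Of 27 tested (28 listed), 21 were lower and none higher, with a median of −2.06 (−2.10 over replica 1 and −1.68 over replica 2). Acta2, smooth muscle α-actin, had 2053 and 2599 CPM at day −2 and 99.4 and 98 CPM at day 1, a log2 ratio of −4.56 ± 0.19 (adjusted p = 9.9e-05, 23.6-fold lower). Ankrd1, a target of YAP and of mechanical load, fell from 10.1 and 15.8 to 0.342 and 0.28 CPM. Myl9, a myosin light chain, fell from 207 and 334 to 14.6 and 12.2 CPM, and Thbs1, thrombospondin 1, from 5483 and 3815 to 294 and 274 CPM. Here the replicas of day −2 differed in either direction and both were far above day 1. The cytoplasmic β-actin gene Actb was not called, with 2229 and 2773 CPM and then 1508 and 1419 CPM (1.71-fold lower). The count stayed at 20 or 21 without each P library. Skeletal muscle markers summed to 7.24 and 4.14 CPM at day −2 and to 1.54 and 0.934 CPM at day 1, with Myod1 and Myog at most at 3 counts.

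Among matrix genes the result depended on single libraries. Of 35 tested collagen and matrix genes, 4 were higher and 10 lower (7.65% and 10.4% over all genes), with a median of −0.12. At day −2, 26 of the 35 were higher in replica 1 than in replica 2, and the median log2 ratio of replica 1 to replica 2 over the group was 0.68. Their summed level was 127827 and 46619.8 CPM at day −2 and 54166 and 53193 CPM at day 1, so that day 1 lay above replica 2 and below replica 1. Col1a1 was at 1546 and 1481 CPM at day 1, under both day −2 replicas, by −3.96 on the log2 scale against replica 1 and −1.69 against replica 2 (−3.23 ± 0.67, adjusted p = 0.017), and the call was lost without either day 1 replica. Col3a1, the chain of type III collagen, had 15766 and 3904 CPM at day −2 and 5081 and 4999 CPM at day 1, between the replicas (adjusted p = 0.253). Without replica 1 of day −2 the counts were 10 higher and 5 lower, and without replica 2 they were 4 and 12. Without either day 1 replica they were 3 higher and 4 lower.

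The 4 genes higher were Postn, Lum, Dcn and Lama4, and some genes moved clearly against both replicas. Postn, the matrix protein periostin, had 111 and 250.4 CPM at day −2 and 1029 and 959 CPM at day 1 (2.46 ± 0.36, adjusted p = 0.00479). Loxl4, which cross-links collagen, fell from 45.6 and 35 to 4.83 and 4.01 CPM (−3.18 ± 0.22, adjusted p = 3.3e-04). Lum, the proteoglycan lumican, had 0 and 1.03 CPM and then 10.3 and 9.43 CPM, a call lost without either day 1 replica. Of 18 tested matrix proteases and inhibitors (19 listed), 5 were higher (Mmp2, Adamts1, Adamts2, Adamts9 and Adamts12) and 6 lower, against 7.65% and 10.4% over all genes. Mmp2, the gelatinase, rose from 288 and 342 to 1719 and 1653 CPM and Adamts1 from 763 and 595 to 2414 and 2368 CPM. Timp3, an inhibitor of such proteases, fell from 8.95 and 8.42 to 0.598 and 0.56 CPM, and Mmp23 from 27.7 and 18 to 4.66 and 5.51 CPM. These protease and inhibitor genes differed by less than 2-fold between the day −2 replicas.

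Complement and acute phase genes rose, with 11 of 18 tested (21 listed) higher and 2 lower, and a median of 2.72 (2.18 over replica 1 and 2.57 over replica 2). C3, the central complement protein, had 3.51 and 4.21 CPM at day −2 and 141 and 134 CPM at day 1 (5.15 ± 0.19, adjusted p = 8.4e-05, 35.6-fold). Both day 1 replicas were far above both day −2 replicas. The 11 became 9 and 8 without replica 1 and 2 of day 1. When at least 10 counts were required in every library, which 6 of the 18 genes had, C3 was the 1 gene called higher. Ptx3, the long pentraxin, fell from 366 and 166 to 98.7 and 98 CPM, a call lost without replica 1 of day −2 (log2 ratio −0.77) or either day 1 replica. Serpina3g, a serine protease inhibitor, fell from 11.2 and 10.1 to 3.25 and 3.83 CPM. The macrophage markers summed to 12.7 and 12.5 CPM at day −2 and to 8.63 and 10.6 CPM at day 1, and their part in the rise was not tested.

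Of 12 tested chemokine genes (17 listed), 5 were lower (Ccl2, Ccl7, Ccl8, Ccl9 and Cxcl5) and 2 higher (Ccl5 and Cxcl13), against 10.4% and 7.65% over all genes. Ccl2, the attractant of monocytes, had 98.1 and 236 CPM at day −2 and 12.9 and 12 CPM at day 1 (−3.74 ± 0.52, adjusted p = 0.00401), and Ccl9 fell from 15.3 and 45.2 to 0.94 and 0.98 CPM. In both genes replica 2 of day −2 was the higher and day 1 was below both. Ccl5, which draws T cells, rose from 1.7 and 3.32 to 6.28 and 7.52 CPM and lost its call without either day 1 replica. The number lower was 2 and 3 without replica 1 and 2 of day 1.

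Cell cycle genes were examined by phase. Of 43 genes of DNA replication, 11 were lower and none higher (10.4% and 7.65% over all genes), with a median of −0.41. Mcm3, a subunit of the replicative helicase, had 452 and 255 CPM at day −2 and 118 and 110.2 CPM at day 1 (−1.63 ± 0.26, adjusted p = 0.0071), and Cdt1, which licenses origins, fell from 107 and 42.8 to 24.4 and 24.7 CPM. Leaving out replica 1 of day −2 or either day 1 replica reduced the 11 to 5. Of 34 genes of mitosis, 2 were higher and none lower, against 7.65% and 10.4% over all genes. Top2a, the topoisomerase of dividing cells, rose from 278 and 377 to 698 and 672 CPM and Nusap1, a spindle protein, from 13 and 41.2 to 68.6 and 67.4 CPM. Both calls were lost without replica 1 of day −2, and that of Nusap1 also without either day 1 replica. Mki67, a marker of dividing cells, had 226 and 487 CPM at day −2 and 470.1 and 474 CPM at day 1, so that day 1 was at the level of replica 2 and above that of replica 1. The median of the mitosis genes was 0.77 over replica 1 and 0.09 over replica 2, and 14 were called higher without replica 2 and none without replica 1.

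The ribosomal and respiratory groups showed the same dependence. Of 79 tested cytosolic ribosomal protein genes (83 listed), 2 were called higher (Rpl31 and Rps27), against 7.65% over all genes. At day −2, 60 were lower in replica 1 than in replica 2. Their median was 0.94 over replica 1 and 0.14 over replica 2, and 38 were called higher without replica 2 and none without replica 1. Of 76 tested respiratory chain genes (83 listed), 4 were called higher (Ndufa3, Ndufa7, Ndufs6 and Uqcr10), against 7.65% over all genes. In replica 1 58 were lower, and the medians were 0.87 and 0.15. Without replica 2 of day −2, 36 were called, and without replica 1 none.

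Of the 11 TALE homeobox genes, the family of Prep1, 2 were higher and 1 lower (7.65% and 10.4% over all genes). Meis2 rose from 88 and 105 to 215 and 210 CPM (1.14 ± 0.14, adjusted p = 0.00272) and Meis1 had 15.2 and 40.4 CPM and then 73.2 and 71.6 CPM (adjusted p = 0.0594). Meis1 lost its call without any 1 of several libraries, replica 1 of day −2 among them (log2 ratio 0.83). Tgif2, a repressor of TGFβ signals, fell from 49.1 and 28.7 to 16.8 and 15.7 CPM, a call lost without replica 1 of day −2 (−0.83) or either day 1 replica. Among 19 tested targets of p53 (21 listed), 2 were higher (Sesn1 and Trp53inp1) and 3 lower (Bbc3, Gdf15 and Ephx1), with a median of −0.37 and at shares near those over all genes (7.65% and 10.4%). The number lower was 1 without either day 1 replica. Sesn1, a stress sensor upstream of mTOR, had 18.5 and 15.9 CPM and then 34.6 and 35.2 CPM, and Bbc3, the death factor PUMA, 33.3 and 13.2 CPM and then 7.05 and 9.76 CPM. The call of Bbc3 was lost without replica 1 of day −2 or either day 1 replica. Those of Trp53inp1 and Gdf15 were kept under 10 and 8 of 19 alternatives and were lost, among others, without replica 1 of day −2, either day 1 replica or any C library.

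The response of P cells was then compared with that of C cells, which had 2723 genes called in the same fit, 1432 higher (10.7%) and 1291 lower (9.68%). The interaction term, the log2 response of P cells minus that of C cells, was called for 316 genes (2.37%), of which 258 (1.93%) were lower in P cells and 58 (0.435%) were higher. The number was unstable, with 32 and 33 genes without replica 1 and 2 of P cells at day 1, 1484 without replica 1 of P cells at day −2 and 8395 without replica 2. It was 38 and 47 without replica 1 and 2 of C cells at day −2, and 69 and 66 without those of day 1.

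**Figure D4:**
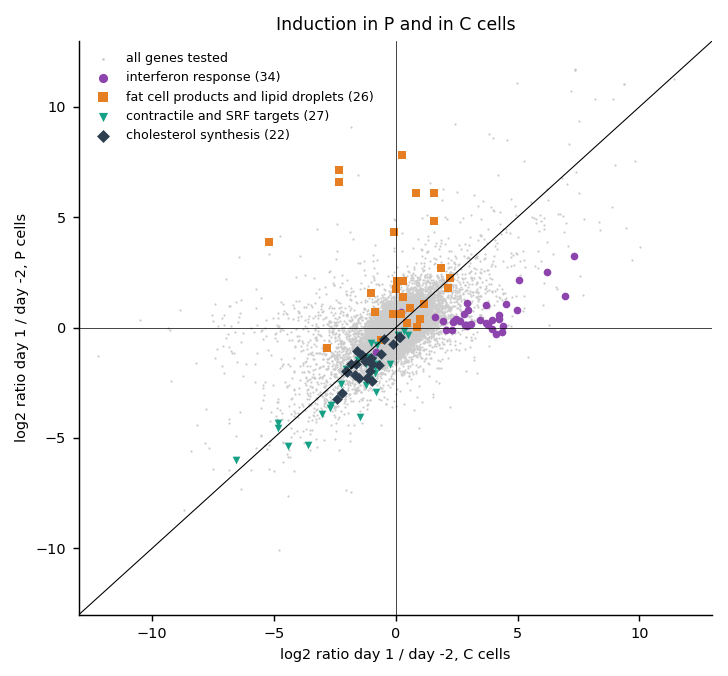
Log2 ratio of day 1 to day −2 in P cells (y axis) against that in C cells (x axis), 1 point per gene tested, with 4 gene groups marked by colour and shape and the diagonal of equal response as a line. Interferon genes lie near 0 on the y axis and right of 0 on the x axis, with medians of 0.32 and 3.3, fat cell genes lie mainly above the diagonal, with medians of 1.77 and 0.28, and ratios of genes at 0 on 1 day depend on the model.

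Interferon-stimulated genes had the highest share of called differences among the 21 groups. In P cells 6 of 34 were higher and 1 lower at day 1, with a median of 0.32, while in C cells 32 were higher with a median of 3.3, and the difference was called for 28, all lower in P cells. Irf7, the factor that amplifies the interferon response, had 11.5 and 10.5 CPM at day −2 and 11.8 and 11.6 CPM at day 1 in P cells, against 1.12 and 1.02 and then 23.2 and 22.6 CPM in C cells. The difference was −4.32 ± 0.25 (adjusted p = 0.00289). At day −2 both P libraries were above both C libraries, and at day 1 they were below them. Oas2, an antiviral RNA sensor, had 4.15 and 4.35 CPM and then 12 and 10.9 CPM in P cells and 0.279 and 0.266 and then 32.6 and 34.9 CPM in C cells (difference −5.50 ± 0.28, adjusted p = 0.00289). At day −2 27 of the 34 were higher in P than in C cells (4.83% over all genes), with a median of 2.28, and at day 1 8 were lower (2.23% over all genes), with a median of −0.75. The 6 genes that rose in P cells included Ifi44 (3.67 and 7.1 to 55.3 and 47.9 CPM) and Psmb9, a subunit of the immunoproteasome (2.34 and 2.1 to 12.3 and 13 CPM). The gene lower at day 1 was Ifit2, with 12 and 18.1 CPM and then 7.05 and 7 CPM, a call lost without replica 2 of day −2 or either day 1 replica. The day −2 replicas of P cells were near each other in Irf7 and Oas2.

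**Figure D5:**
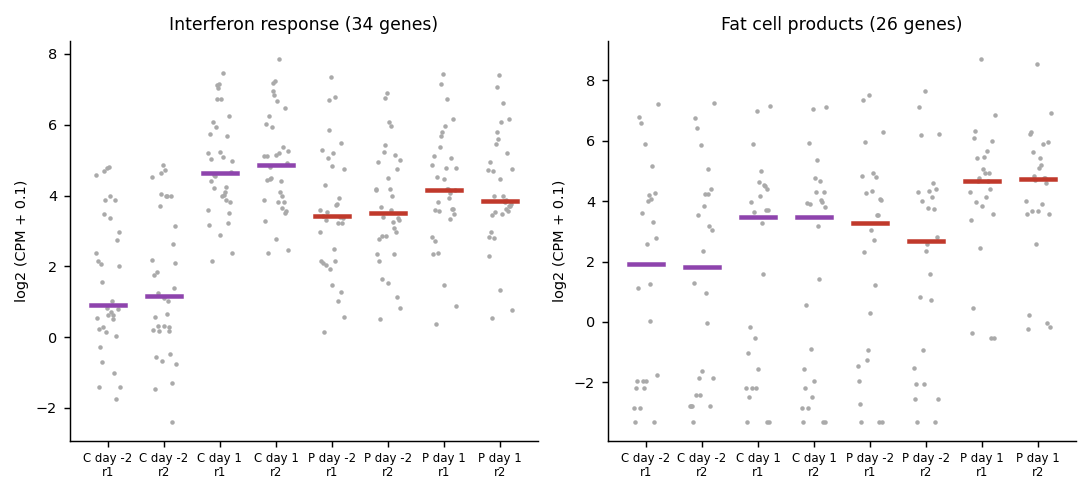
Log2(CPM + 0.1) of the 34 interferon-stimulated and the 26 fat cell genes (y axis) in the 8 libraries (x axis), 1 point per gene, with bars at the median of each library. The interferon medians of C cells are 0.92 and 1.17 before and 4.63 and 4.86 after induction, those of P cells 3.42 and 3.5 before and 4.17 and 3.86 after, while the fat cell medians are highest in P cells at day 1, at 4.67 and 4.73.

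Fat cell genes differed the other way. The difference was called for 7 of the 26, all above 0 (Adipoq, Cidec, Gpd1, Fabp4, Fabp5, Acsl1 and Slc2a4). Over all genes it was called for 2.37%, and above 0 for 0.435%. Fabp5 was itself lower at day 1 in P cells, so that its difference is a smaller fall and not a larger rise. The median in C cells was 0.28, with 5 genes called higher and 3 lower. Adipoq stayed between 0.0398 and 0.118 CPM in the 4 C libraries, at or under the floor, against 19.4 and 16.1 CPM in P cells at day 1 (difference 5.24 ± 1.08, adjusted p = 0.0939). This difference was called under 5 of 17 alternatives, and lost, among others, with no filter, the replicate block, limma voom and without any C library or either day 1 replica of P cells. Cidec had 0.159 and 0.177 CPM and then 0.592 and 0.438 CPM in C cells (difference 4.51 ± 0.50, adjusted p = 0.013). Its difference was 4.31 to 4.78 over the alternatives and called under 12 of 17. It was lost with limma voom and without either day −2 replica of C cells or either day 1 replica of P cells. Fabp4 had 2.07 and 2.35 CPM and then 0.789 and 1.39 CPM in C cells, and 28.4 and 19.8 CPM in P cells at day −2 already (difference 2.57 ± 0.42, adjusted p = 0.0462). P cells were higher than C cells in 6 of these genes at day −2 (4.83% over all genes) and in 14 at day 1 (1.83% over all genes).

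Among the early factors the difference was called for 3 of 17 genes, all lower in P cells. Cebpa rose in C cells from 0.757 and 0.842 to 16.4 and 16.9 CPM, against 7.51 and 3.39 and then 17.5 and 19.1 CPM in P cells (difference −2.61 ± 0.52, adjusted p = 0.0836). Cebpd had 6.65 and 9.04 CPM and then 66.5 and 61.2 CPM in C cells (difference −2.53 ± 0.45, adjusted p = 0.0617), and Egr2 3.87 and 4.7 CPM and then 30.3 and 24.9 CPM (difference −2.44 ± 0.44, adjusted p = 0.0635). In each of the 3 both P libraries at day −2 were above both C libraries. At day 1 the level of P cells minus that of C cells on the log2 scale was 0.14 in Cebpa and 0.10 in Cebpd, and −0.86 in Egr2, where both P libraries (15.1 and 15.4 CPM) were below both C libraries (adjusted p = 0.219). The 3 differences were each called under 8 of 18 alternatives, and were lost with the replicate block, the crossed block and the covariate, and without any C library or either day 1 replica of P cells. The cyclic AMP targets gave a median of 2.34 in C cells with 17 higher and 5 called differences, all lower in P cells (Nr4a1, Nr4a3, Pde4d, Egr1 and Gem), and the glucocorticoid targets a median of 2.39 with 15 higher and 1 called difference, that of Cebpd.

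Among the genes with the lowest p of the difference, Sema5a, Gas7 and Dpt were higher in P cells and Oas2, Irf7 and Tnn lower. Sema5a, a guidance protein of the semaphorin family, had 4.1 and 4.49 CPM and then 126 and 139 CPM in P cells against 27.3 and 31.4 and then 124 and 128 CPM in C cells (difference 2.83 ± 0.21, adjusted p = 0.00399). The day 1 libraries of P and C cells had similar levels, and those of day −2 did not. Gas7, linked to growth arrest, had 20.8 and 23.5 CPM and then 288 and 287 CPM in P cells and 69.4 and 67.7 and then 239.7 and 244 CPM in C cells. Dpt, the matrix protein dermatopontin, had 7.78 and 9.35 CPM and then 126 and 119 CPM in P cells and 21.4 and 21.4 and then 71.5 and 62 CPM in C cells. Tnn, tenascin N, fell in P cells from 17.6 and 18.1 to 6.67 and 7.56 CPM and rose in C cells from 1.91 and 1.64 to 17.1 and 16.2 CPM (difference −4.55 ± 0.26, adjusted p = 0.00289). The differences of Sema5a, Oas2, Irf7 and Tnn were called under every alternative tried, and Gas7 and Dpt lost theirs without replica 1 of C cells at day −2 or either day 1 replica of P cells.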

How the data were processed

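RNA of 3T3-L1 cells was sequenced on the Ion Torrent system in 8 libraries, 4 of C cells and 4 of P cells, at day −2 and day 1 with 2 replicas per condition. Read artifacts were removed by the authors (FASTX-Toolkit), alignment to mm9 used TopHat v2.0.9, and reads were counted per NCBI gene on refGene (GenomicFeatures, GenomicRanges, GenomicAlignments). What was deposited is whole-number read counts of 24013 genes, without normalization, and 0 columns were left unused. How reads of several genes or either strand were counted is not given in the sources used here. A RefSeq list (GRCm38.p6) gave symbols for 23929 genes, and 84 kept their number.

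Genes were filtered with filterByExpr on the 4 conditions (13339 left) and scaled by TMM. The quasi-likelihood test of edgeR 4.0.16 (limma 3.58.1, R 4.3.3) was fitted to all 8 libraries with 1 mean per condition, and was two-sided. A gene was called at a Benjamini-Hochberg adjusted p under 0.1 and a ratio over 2 or under 0.5, and a difference between P and C cells, the interaction term, at the adjusted p alone. With the labels not saying whether replicas were separate cultures, p-values measure the spread between these libraries. Each gene had 1 spread for all conditions. The p-values and SE of induction in P cells can thus be too small where the day −2 replicas lay apart. With only the 4 P libraries in the fit 1213 genes were called, and 1471 with limma voom and 1 weight per condition, against 2406. The SE after each ± was worked back from the test, as the size of the log2 ratio divided by the square root of the F statistic. CPM were computed from the scaled sizes. The ratios to single replicas used a prior count of 2. Ratios of genes with 0 to 3 counts on 1 day came from the counts, with a floor of 3 counts per library or a 95% interval, both of counting error only. The deviations of same-numbered libraries from the mean of their condition were correlated across genes.

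The rule for named genes took the 12 higher and 12 lower by the smallest ratio between libraries of the days, the 2 higher and 2 lower with the largest ratio in each of 21 lists (mean of at least 50 counts), genes the study names, the 3 higher and 3 lower differences with the lowest p, and the 3 genes at each end of the ratio between the day −2 replicas. Some genes that this rule took are not reported here. Members and lists were chosen with earlier results of these data known. The alternatives were DESeq2 1.42.0, its size factors or library totals, no filter, at least 10 counts in every library, a replicate block, limma voom with 1 weight per condition, only the libraries of the comparison, an adjusted p under 0.05, no threshold on the ratio, and each library left out. A block in which P replica numbers at day 1 were swapped and a covariate for the 3 libraries with under 17000 genes detected were added after seeing the data. On simulated data with 200 of 13339 genes changed 4-fold in P cells, 76% to 80% were called, with 13 to 15 false calls. Each gene was simulated with the same spread in every condition. The wider gap between the day −2 replicas of P cells was thus absent, and these rates do not carry over to the comparison of this report. Promoter motifs were planned and were not analysed here.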

Additional observations from a re-analysis of the deposited data

Results flagged for a closer look

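For 21 of the genes taken by the rule for named genes, the log2 response of P cells differed from that of C cells by the test of the difference itself, given here as P minus C with its adjusted p (edgeR). The interferon-stimulated genes responded less in P cells, by −5.5 in Oas2 (0.00289), −4.32 in Irf7 (0.00289), −4.06 in Ifi44 (0.0207) and −3.71 in Psmb9 (0.013). The matrix gene Tnn differed by −4.55 (0.00289), the protease Adamts1 by −1.67 (0.0388), the inhibitor Timp3 by −1.94 (0.0212), osteopontin (Spp1) by −1.5 (0.051) and the pentraxin Ptx3 by −3.32 (0.0388). Of the transcription factors, Cebpa differed by −2.61 (0.0836), Cebpd by −2.53 (0.0617), Egr2 by −2.44 (0.0635), Nr4a3 by −2.74 (0.076) and Ddit3 by −1.48 (0.0445). Grb14 differed by −1.2 (0.0719). A difference below 0 can also be a larger fall. Spp1 (−6.51 against −5.01 in C cells), Timp3 (−3.89 against −1.95) and Grb14 (−2.46 against −1.27) fell further in P cells. Ddit3 fell in P cells (−1.4) and hardly moved in C cells (0.08). Of the 21, those with a difference above 0 were Cidec, by 4.51 (0.013), Adipoq, by 5.24 (0.0939), Slc2a4, by 9.1 (0.0895), Sema5a, by 2.83 (0.00399), Gas7, by 1.88 (0.00959), and Dpt, by 2.19 (0.0103). Slc2a4 was at 0 in both C libraries at day 1 and had few counts elsewhere, so that the size of its difference depends on the model. All of these genes except Spp1, Ddit3, Cidec and Slc2a4 also passed the test and the 2-fold threshold between P and C cells at day −2, so that the level before induction enters the difference.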

How the results depend on the processing

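The genes called for induction in P cells numbered 2406, and 1471 with limma voom, 1213 with only the 4 P libraries in the fit, 4192 with no threshold on the ratio and 1248 to 5000 with 1 library left out. Those called higher numbered 1020, and 490, 505, 1867 and 540 to 2770 in the same order. Those called lower numbered 1386, and 708 with only the P libraries, 2325 with no threshold on the ratio and 708 to 2230 with 1 library left out. The highest values came without replica 2 of P cells at day −2 and the lowest without replica 2 at day 1. With DESeq2, both other scalings, both other filters, both blocks and the covariate the total lay between 1867 and 2529. Induction in C cells gave 2723 genes, 4743 with no threshold on the ratio and 1664 to 3329 with 1 library left out. The difference in induction between P and C cells was called for 316 genes, for 930 with DESeq2, 128 with the covariate, 174 at an adjusted p under 0.05 and 32 to 8395 with 1 library left out. The cause of these shifts was not tested, although a library left out leaves 1 condition with a lone sample, assumed to vary like the others. With a replicate block, induction in P cells was called for 2084 genes and the difference for 117, and for 148 with the block crossed. The labels do not say whether a replica number marks libraries handled together, and correlations between libraries cannot settle it. Deviations of same-numbered libraries correlated at −0.275 between the days of P cells and between −0.355 and 0.209 over all pairs of conditions. Among the 5600 genes above 5 on the log2 CPM scale these correlations lay between −0.752 (P before against C after induction) and 0.438 (P against C before induction), with −0.503 between the days of C cells and −0.192 between those of P cells. The Prep1 check was judged by the adjusted p alone, since it is under 2-fold. At day −2 (−0.62) it no longer passed with no filter (−0.62), the replicate block (−0.62), the crossed block (−0.62), the covariate (−0.62), limma voom (−0.61), only the day −2 libraries (−0.63) and an adjusted p under 0.05 (−0.62). At day 1 (−0.65) it no longer passed with library totals (−0.55), no filter (−0.67), the replicate block, the crossed block, the covariate and an adjusted p under 0.05 (each −0.65). With 1 library left out the check lay between −0.67 and −0.57 at day −2 and between −0.7 and −0.65 at day 1. At both days it passed without either day −2 replica of P cells and not without each other library. Genes more than 2-fold from both day −2 replicas of P cells numbered 1764, and 367 among genes above 5 on the log2 CPM scale. Without replica 2 of P cells at day −2 the sign turned for Egr2 (with 1 library left out, −0.13 to 0.77), Srebf1 (−0.16 to 0.64), Vmn2r110 (−11.58 to 10.27), AY512915 (−7.15 to 10.32) and 0610039K10Rik (−9.18 to 8.15), and that of AY512915 also with the replicate block (0.64), limma voom (0.1) and without replica 2 of P cells at day 1 (0.88). Of 1885 values of 101 named genes under the alternatives, 1695 kept direction and call, 180 lost the call and 2 gained it. Most of these genes were picked for large responses in the main fit, and genes not called in either fit count as kept. This share thus does not carry over to all genes. Of 372 values of 21 differences, 234 kept the call and 138 lost it. At this depth a gene under 0.16 CPM cannot be told from 0, and 2 replicas that lie apart limit what can be called in P cells.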

Other observations

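A few more genes differed in their response between P and C cells. Igfbp5, a binding protein for insulin-like growth factors, had 81.8 and 51.5 CPM at day −2 and 72.6 and 70.9 CPM at day 1 in P cells, and 0.159 and 0.0443 CPM and then 8.33 and 9.12 CPM in C cells (difference −6.21 ± 0.54, adjusted p = 0.0055). In P cells the day 1 values of Igfbp5 lay between the day −2 replicas, and both C libraries at day 1 lay under all 4 P libraries. Spry1, an inhibitor of growth factor signals, went in opposite directions, from 58.3 and 44.7 to 24 and 20.4 CPM in P cells and from 10 and 9.35 to 22.8 and 22.7 CPM in C cells (difference −2.45 ± 0.26, adjusted p = 0.0127). The acute phase gene Hp, haptoglobin, rose in both, from 3.67 and 3.21 to 12.1 and 10.6 CPM in P cells and from 0.199 and 0.133 to 16.7 and 17.6 CPM in C cells (difference −4.91 ± 0.35, adjusted p = 0.00399). Mmp3, the protease stromelysin 1, fell less in P cells, from 6.55 and 10.9 to 2.44 and 3.08 CPM, than in C cells, from 32.6 and 36.5 to 0.71 and 0.557 CPM (difference 4.09 ± 0.44, adjusted p = 0.0127). These 4 genes were chosen after their values were seen.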
